A study of Mus musculus with 3 samples.

Results

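Oocyte genes were followed in the developing gonads of male mouse embryos that lack Cyp26b1, the enzyme that breaks down retinoic acid in the fetal testis. The 10 members were taken by name: Figla, Nobox, Lhx8, Sohlh1, Sohlh2, Padi6, Zp2, Zp3, Gdf9 and Nlrp5. Of these, 9 were matched to 12 probes through RefSeq accessions, Sohlh1 was matched to none, and 6 members were bright enough to be tested among 13484 genes. All embryos carried the genotype Cyp26b1-/- in the MCH mouse line, and whole gonads were collected on embryonic days 12.5 (E12.5), 13.5 (E13.5) and 14.5 (E14.5). Each stage had 2 single-colour Agilent arrays, given by the series as biological duplicates, so the differences below are between stages of 1 genotype. Arrays of another genotype or of female gonads were not analysed here. In whole gonads, fewer cells of a type and less RNA per cell cannot be told apart.

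The oocyte programme is built by germ cells of the fetal ovary as they enter and pass through meiosis. FIGLA and SOHLH proteins are basic helix-loop-helix factors, which bind a short DNA element called the E-box, while NOBOX and LHX8 are homeodomain factors. In mouse, loss of any of these factors blocks or depletes the early oocytes, and FIGLA is needed for expression of the zona pellucida genes. The zona proteins, GDF9 and the proteins stored for the embryo, such as PADI6 and NLRP5, are known best from growing oocytes after birth.

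The upstream sequences of 4 members are shown because they carry, or lack, the element that FIGLA and SOHLH proteins bind. They are the RefSeq sequences of assembly GRCm38.p6, 250 bases ending at the start of an annotated transcript, written 5′ to 3′ with every E-box (CANNTG) in capitals. Figla was the member with the largest rise, Lhx8 rose and has no E-box here, Padi6 was the member that fell, and Zp3 is a zona pellucida gene. The window of Figla lies within the annotated span of the gene, so RefSeq has another start upstream of it, and likewise for Nobox and for 1 of the windows of Nlrp5.
Figla (chr6:86016941-86017190, plus strand): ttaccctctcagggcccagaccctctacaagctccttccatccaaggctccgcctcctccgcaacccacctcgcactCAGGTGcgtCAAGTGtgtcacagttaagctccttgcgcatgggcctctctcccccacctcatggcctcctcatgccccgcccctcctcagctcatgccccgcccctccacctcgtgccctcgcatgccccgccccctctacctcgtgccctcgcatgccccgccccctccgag
Lhx8 (chr3:154330561-154330810, minus strand): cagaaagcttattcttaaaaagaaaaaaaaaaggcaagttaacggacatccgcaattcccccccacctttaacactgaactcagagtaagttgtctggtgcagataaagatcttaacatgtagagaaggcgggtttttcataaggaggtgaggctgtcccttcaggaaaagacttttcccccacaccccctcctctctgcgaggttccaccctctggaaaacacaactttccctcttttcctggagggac
Padi6 (chr4:140742644-140742893, minus strand): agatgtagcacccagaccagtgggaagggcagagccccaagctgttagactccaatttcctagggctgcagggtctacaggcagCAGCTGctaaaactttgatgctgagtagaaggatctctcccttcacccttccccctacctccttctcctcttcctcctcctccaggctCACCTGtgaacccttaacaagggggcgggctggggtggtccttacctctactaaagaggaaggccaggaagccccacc
Zp3 (chr5:135979855-135980104, plus strand): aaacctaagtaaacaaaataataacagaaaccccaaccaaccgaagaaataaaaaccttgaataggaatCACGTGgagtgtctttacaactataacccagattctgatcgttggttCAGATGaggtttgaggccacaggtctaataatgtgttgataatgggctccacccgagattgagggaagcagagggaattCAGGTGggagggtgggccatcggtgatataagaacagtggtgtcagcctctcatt
Windows were found for 8 members, with Nlrp5 having 2, and not for Zp2 and Gdf9. An E-box was present in the windows of 7 of these 8 members, and Lhx8 was the exception. The element is common, since 66.2% of the 32851 RefSeq windows of this length held at least 1. On both strands the letters TAATTG, bound by NOBOX, and TGATTG, bound by LHX8, were in none of the members' windows, against 7.17% and 12.7% of all windows. These matches are letters in a window and say nothing of binding in these gonads.

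**Figure D1:**
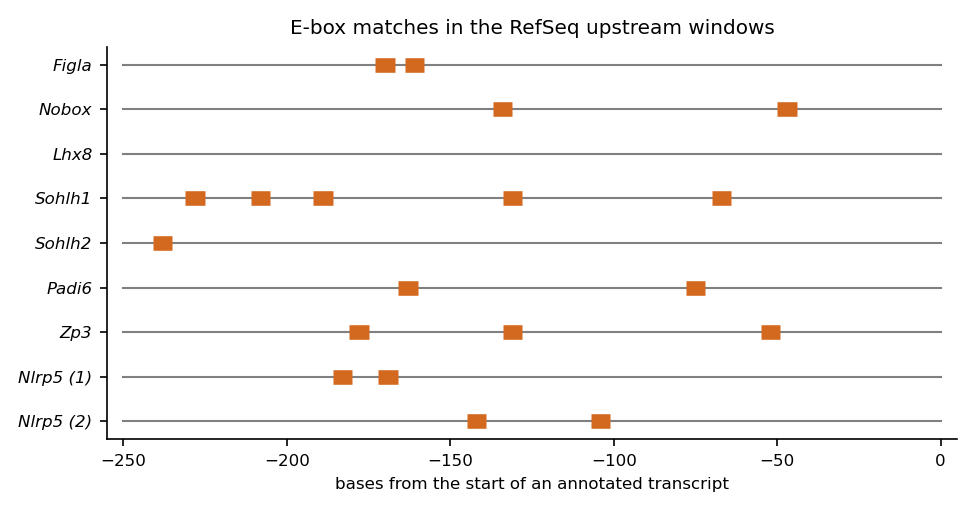
E-box matches (orange blocks) in the 250 bases before an annotated transcript start of the 8 members with a RefSeq window, in bases from the start. The 2 Figla matches begin at positions -173 and -164 relative to the start and lie next to each other, while Lhx8 has none.

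Signals are given as log2 of the background-subtracted spot intensity minus the 75th percentile of its array, so that 0 is the level of a spot at that percentile. On the 6 arrays 65.9% to 70.8% of gene spots were well above background by the scanner's flag, and 0 spots were saturated. Most members were dim. Of the 12 probes, 4 were flagged above background throughout, those of Nobox, Sohlh2, Gdf9 and 1 of Lhx8, and 3 were so on 0 arrays. Both E12.5 arrays lay on 1 slide, scanned together, and the 4 later arrays on another, so in each comparison with E12.5 stage and slide cannot be told apart, whereas E14.5 against E13.5 was made within a slide. The probe for Cyp26b1 itself read 4.23 and 3.78 on the E14.5 arrays and 4.92 and 4.69 on the E12.5 arrays, well above background, but its place relative to the deletion is not given in the sources used here, so it does not check the genotype.

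**Figure D2:**
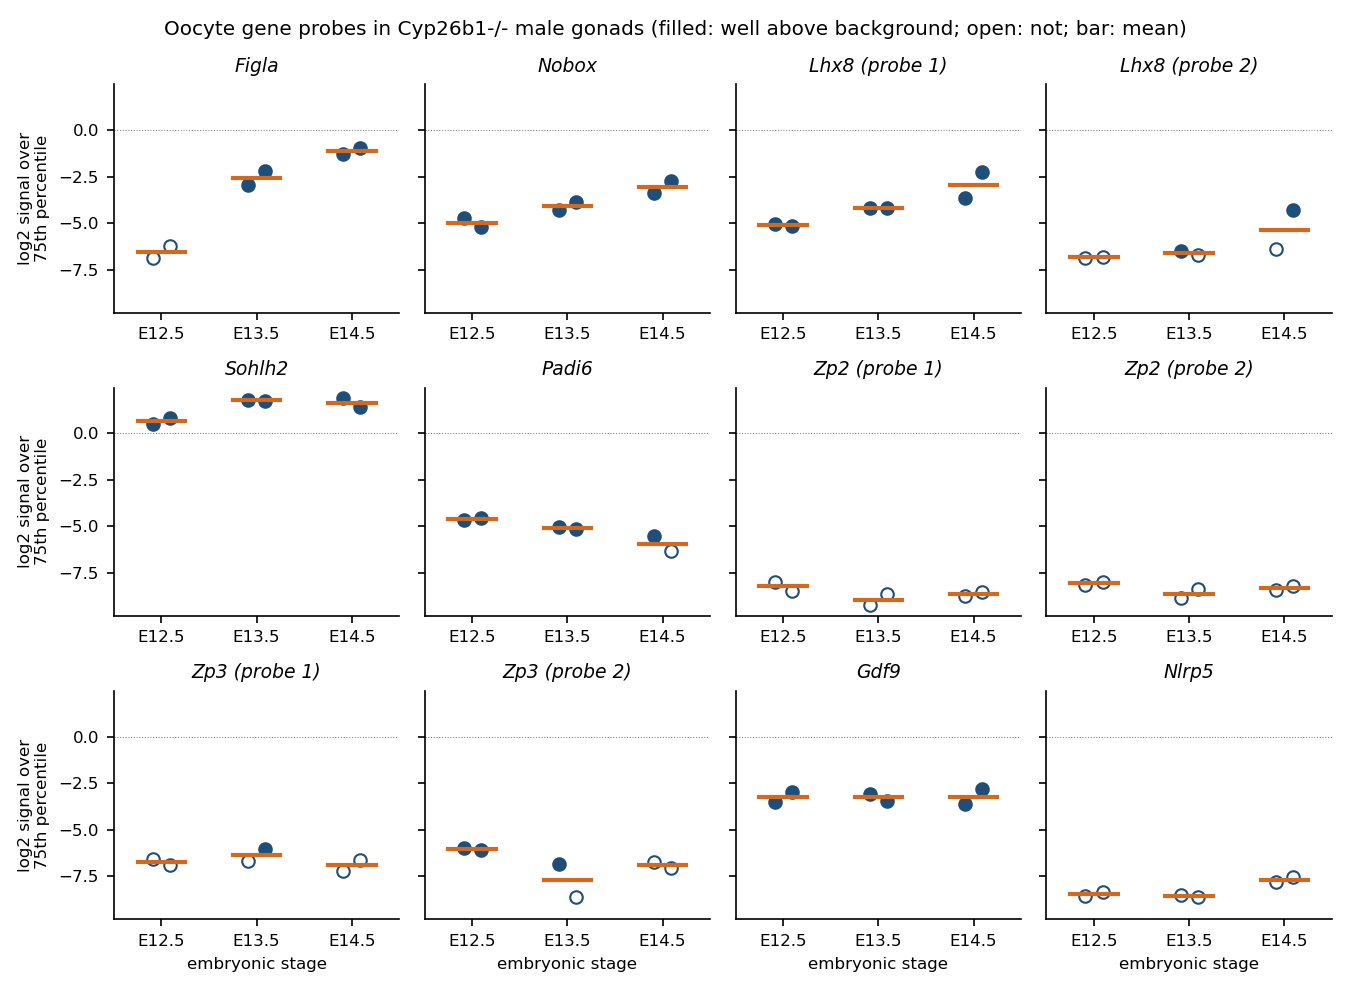
Every probe of the 9 members with a probe, by stage, as log2 signal over the array's 75th percentile; each point is 1 array, bars are the mean of 2 arrays, filled points are well above background and open points are not. Figla has open points at E12.5 and filled points at both later stages, highest at E14.5, and all points of Zp2 and Nlrp5 are open.

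Figla, the transcription factor that switches on zona pellucida genes, changed most. On the E12.5 arrays its signals were -6.87 and -6.22 and neither was well above background. They were -2.96 and -2.22 on the E13.5 arrays and -1.26 and -0.95 on the E14.5 arrays, all well above background. The arrays of the 3 stages did not overlap, and the order was E12.5 lowest and E14.5 highest. Before scaling, the Figla spot read 479.0 and 637.0 intensity units on the E14.5 arrays over local backgrounds of 64.0 and 53.0, against 103.0 and 92.0 on the E12.5 arrays over 59.0 and 63.0. Because E12.5 gives only a bound, the change is given against the lowest signal that was well above background on each E12.5 array, or the probe's own signal where that was higher. Against that level, Figla was 13.2-fold higher at E13.5 and 37.0-fold higher at E14.5. The test itself compared the measured signals (limma adjusted p = 0.00194 for E13.5 and 0.000478 for E14.5). Both calls held under every alternative that tested it. The measured log2 differences were 3.95 ± 0.32 (SE) and 5.44 ± 0.32, and under normexp background correction 2.07 and 3.24. The folds above belong to the scanner's background subtraction and are not minimums, since the normexp differences are smaller. Between E14.5 and E13.5, within the slide, the difference was 1.49 ± 0.32 (SE) on the log2 scale, a 2.80-fold higher mean at E14.5, and did not pass (limma adjusted p = 0.107), with 0.0145 under normexp background correction and 0.0429 under a trended, robust prior. The authors' deposited table, which gives each probe 1 ratio per stage to an unstated reference, had Figla ratios of 0.142 for E12.5, 2.35 for E13.5 and 6.08 for E14.5, beside column medians over all probes of 0.963, 1.04 and 1.01.

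Nobox, a homeobox gene needed for oocytes to survive beyond the primordial follicle, was present on all arrays but low. Its signals were -4.73 and -5.23 at E12.5, -4.30 and -3.89 a day later (E13.5), and -3.40 and -2.74 on the E14.5 arrays. The stages did not overlap. Nobox rose in E14.5 against E12.5, by 1.91 ± 0.28 (SE) or 3.76-fold (limma adjusted p = 0.00405). The steps between neighbouring stages were similar in size and neither passed. They measured 1.03 ± 0.28 for E14.5 against E13.5 (limma adjusted p = 0.164) and 0.88 ± 0.28 for E13.5 against E12.5 (limma adjusted p = 0.0603), and the earlier step passed under 8 alternatives, 3 of which are the same fit to the E13.5 and E12.5 arrays, with limma adjusted p down to 0.0134 under normexp.

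Lhx8, a LIM homeobox gene of germ cells that is needed for oocyte differentiation, had 2 probes. The brighter one read -5.04 and -5.15 on the E12.5 arrays, -4.17 on both E13.5 arrays, and -3.66 and -2.23 on the E14.5 arrays. At E14.5 array 2 lay 1.43 above array 1, a higher difference between those arrays than in 99.8% of genes. Lhx8 rose in E14.5 against E12.5, by 2.15 ± 0.43 (SE) or 4.45-fold (limma adjusted p = 0.00994). That call held in every alternative that tested it, and the difference was 1.38 under normexp and 1.44 without E14.5 array 2. It did not pass in E14.5 against E13.5 (1.23 ± 0.43, limma adjusted p = 0.222) or in E13.5 against E12.5 (0.93 ± 0.43, limma adjusted p = 0.143). With E14.5 array 1 left out the difference to E13.5 was 1.94 (limma adjusted p = 0.0459), and with either E14.5 array left out the E13.5 rise passed (limma adjusted p = 0.00771). The second probe was well above background on 2 arrays, 1 at E13.5 and 1 at E14.5. It read -6.88 and -6.81 on the E12.5 arrays, -6.49 and -6.70 on the E13.5 arrays, and -6.42 and -4.32 on the E14.5 arrays, and was not tested. On both probes E14.5 array 2 was the highest. The 2 revisions of the array design in these files name the brighter probe by different accessions, and only that of the later arrays was matched to Lhx8 in the RefSeq table.

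Sohlh2, which with its partner Sohlh1 acts upstream of oocyte genes and is also active in spermatogonia, was well above background throughout. Its signals were 0.48 and 0.84 for E12.5, 1.80 and 1.75 for E13.5, and 1.90 and 1.40 for E14.5. All 4 later arrays were above both E12.5 arrays, and the 2 later stages overlapped. Sohlh2 rose by 1.11 ± 0.20 (SE), or 2.16-fold, in E13.5 against E12.5 (limma adjusted p = 0.0127) and by 0.99 ± 0.20, or 1.98-fold, in E14.5 against E12.5 (limma adjusted p = 0.0114). In E14.5 against E13.5 it differed by -0.12 ± 0.20 (limma adjusted p = 0.776). The 1.98-fold rise in E14.5 against E12.5 was not counted under a 2-fold minimum. The E13.5 call was lost without E12.5 array 1, E13.5 array 1 or E13.5 array 2, with limma adjusted p of 0.0585, 0.0557 and 0.0595. The E14.5 call was lost without E12.5 array 1, at 0.0532.

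Padi6, which encodes a peptidylarginine deiminase homologue of the egg's cytoplasmic lattices, was the 1 tested member that fell. It read -4.67 and -4.54 on the E12.5 arrays, -5.03 and -5.16 on the E13.5 arrays, and -5.52 and -6.34 on the E14.5 arrays. The stages did not overlap, with E14.5 lowest, and E14.5 array 2 was not well above background. Padi6 fell by 1.33 ± 0.26 (SE) in E14.5 against E12.5, a 2.51-fold lower mean (limma adjusted p = 0.0102). The call ended under normexp background correction, where the difference was -0.02 (limma adjusted p = 0.902), and without E12.5 array 2, at -1.26 (limma adjusted p = 0.0513). Its spot read 84.5 and 94.0 intensity units at E14.5 and 125.0 and 136.0 at E12.5, against local backgrounds of 57.0 to 61.0 on those 4 arrays. In E14.5 against E13.5 it differed by -0.84 ± 0.26 (limma adjusted p = 0.199) and in E13.5 against E12.5 by -0.49 ± 0.26 (limma adjusted p = 0.199). With the arrays of E13.5 and E12.5 alone that last difference passed (limma adjusted p = 0.0378).

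Gdf9, an oocyte-secreted growth factor that acts on the surrounding somatic cells, was above background on every array and had no direction. Its signals were -3.53 and -3.00 for E12.5, -3.07 and -3.46 for E13.5, and -3.64 and -2.81 for E14.5. The duplicates of 1 stage spanned as wide a range as the stages did, and every pair of stages overlapped. The difference was 0.05 ± 0.32 (SE) in E14.5 against E12.5 (limma adjusted p = 0.915).

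Zp2 and Zp3 encode proteins of the zona pellucida, the coat of the egg. Both Zp2 probes were below the flag on every array, between -9.26 and -7.97. The Zp3 probe with the higher mean was flagged above background on 1 array, at E13.5, and read between -7.21 and -6.04. The other Zp3 probe was above background on both E12.5 arrays, at -5.98 and -6.11, on 1 E13.5 array, at -6.83, and on no E14.5 array. Tested beside all probes, that second probe differed by -0.86 ± 0.55 (SE) in E14.5 against E12.5 (limma adjusted p = 0.26) and by -1.70 ± 0.55 in E13.5 against E12.5 (limma adjusted p = 0.0712). Nlrp5, a protein of the egg's subcortical maternal complex, was not well above background on any array, with signals between -8.65 and -7.56. On the arrays the spots of Zp2 and Nlrp5 read 67.0 to 97.5 intensity units over local backgrounds of 54.0 to 71.5. Levels at or under the flag are not well above background and do not show that the genes were silent.

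In E14.5 against E12.5, 4 of the 6 tested members rose (Figla, Nobox, Lhx8 and Sohlh2), 1 fell (Padi6) and 1 did not pass (Gdf9). Over all genes tested, 25.5% rose and 20.9% fell in that comparison. In E13.5 against E12.5, 2 members rose (Figla and Sohlh2) and 0 fell, against 18.3% and 13.3% of all genes. In E14.5 against E13.5, limma called 0 of the 6 members, against 0.0445% of all genes higher and 0.00742% lower, and 4 members (Figla, Nobox, Lhx8 and Padi6) had an unadjusted p under 0.05, as did 18.4% of all genes tested. The median log2 difference of the 6 members was 1.45 in E14.5 against E12.5, 0.53 in E14.5 against E13.5 and 0.91 in E13.5 against E12.5, beside 0.03, -0.02 and 0.05 over all genes tested. Figla passed the filter on dim probes only through E13.5 and E14.5, where it was bright, and Padi6 only through E12.5 and E13.5. Rises made up 55.0% of all calls in E14.5 against E12.5 and 58.0% in E13.5 against E12.5. With arrays centred on their medians they made up 39.4% and 47.2%, and the median of all genes moved to -0.14 and -0.03.

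**Figure D3:**
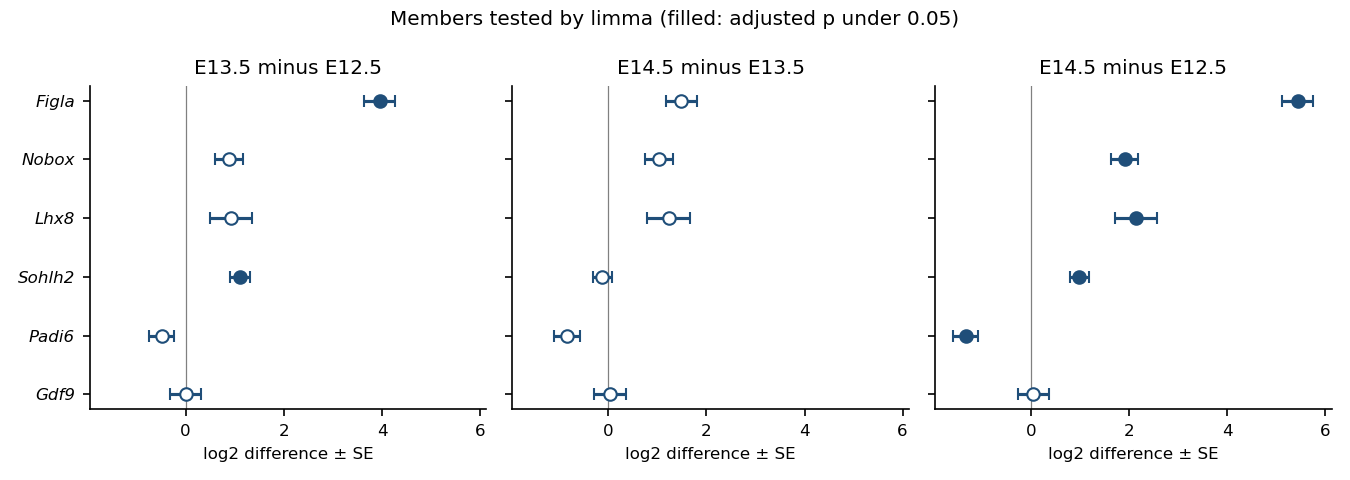
Log2 differences of the 6 tested members in the 3 comparisons of stages, with bars of 1 SE from the fit to all 6 arrays; filled points passed at a limma adjusted p of 0.05. Figla stands to the right of the other members in both comparisons with E12.5, where its E12.5 level is only a bound, and no member is filled in E14.5 minus E13.5.

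The duplicate arrays stood apart for several members at every stage. At E12.5 array 2 minus array 1 was 0.65 for Figla, 0.53 for Gdf9 and -0.5 for Nobox, beside an all-gene SD of 0.363. At E13.5 it was 0.75 for Figla, 0.41 for Nobox and -0.38 for Gdf9, beside an SD of 0.295. The other tested members lay within the SD at those stages. At E14.5 it was 1.43 for Lhx8, 0.83 for Gdf9, 0.66 for Nobox, 0.30 for Figla, -0.50 for Sohlh2 and -0.83 for Padi6. Over all 13484 genes the SD of that E14.5 difference was 0.332 and the median -0.05, and Figla lay within that SD. The same array pair had a median of -0.22 over 6 germ cell markers and -0.40 over 6 mesonephros markers. That median was -0.19 over 7 pregranulosa markers and over 9 Sertoli markers, and -0.03 over 9 genes of meiotic entry. The part of cell makeup in the gaps was not tested.

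Other oocyte genes were read from 3 lists of 56 genes, of which 50 had a probe and 25 were tested. Over all genes tested, 25.5% rose and 20.9% fell in E14.5 against E12.5, and 18.3% and 13.3% did so in E13.5 against E12.5. In E14.5 against E12.5, requiring signal on all 6 arrays left 22 of the 25 to test, and 6 rose and 9 fell. Over all 25 in that comparison, 8 rose, 9 fell and 8 did not pass, with a median of -0.02. Without E12.5 array 2, or without E14.5 array 2, 7 rose and 5 fell. In E13.5 against E12.5, 8 rose and 5 fell, with 5 and 3 without E12.5 array 1 or without E13.5 array 2, and in E14.5 against E13.5 limma called 0 of the 25, where 9 had an unadjusted p under 0.05, beside 18.4% of all genes. Of the 25 genes with a probe that were not tested, 22 were well above background on 0 arrays. These included Bmp15, the close relative of Gdf9, the oocyte homeobox genes Obox1, Obox3, Obox5 and Obox6, and the receptors Gpr3 and Gpr12 that hold oocytes in meiotic arrest.

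Among the regulators, 8 were tested in E14.5 against E12.5, of which 2 rose, 2 fell and 4 did not pass, shares near the 25.5% and 20.9% over all genes. Stat3, a signal-activated transcription factor of many cell types, rose by 1.17 ± 0.11 (SE) (limma adjusted p = 0.00118), and Ybx2, an RNA-binding protein of germ cells, by 0.68 ± 0.11 (limma adjusted p = 0.00483). Elavl2, an RNA-binding protein of neurons and oocytes, fell by 0.79 ± 0.22 (limma adjusted p = 0.0293), and its other probe moved by -1.03. Bnc1, a zinc finger protein, fell by 0.37 ± 0.11 (limma adjusted p = 0.0416). With no background filter the Elavl2 and Bnc1 calls ended (limma adjusted p = 0.0602 and 0.07). That of Bnc1 also ended under normexp (0.101), beside all probes (0.0591) and with only the E14.5 and E12.5 arrays (0.0791). The Elavl2 call ended without either E12.5 array or E14.5 array 2 (limma adjusted p = 0.0833 to 0.0982), and the Bnc1 call ended without any 1 of the 6 arrays (0.0558 to 0.154).

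Of the surface and signalling genes, 2 were tested and both fell in E14.5 against E12.5, as did 20.9% of all genes tested. Kit, the receptor through which somatic cells signal to germ cells and growing oocytes, fell by 0.93 ± 0.12 (SE) (limma adjusted p = 0.00248). Its signals were 0.49 and 0.39 at E14.5, against 1.29 and 1.46 at E12.5. Gja4, a gap junction protein that links oocyte and granulosa cells and is also made by blood vessels, fell by 0.48 ± 0.13 (limma adjusted p = 0.0306). The Gja4 call ended with no background filter (limma adjusted p = 0.0578) and with only the E14.5 and E12.5 arrays (0.0546). That call ended on leaving out any 1 array other than E14.5 array 1 (limma adjusted p = 0.0546 to 0.129).

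Of the maternal proteins, 15 were tested in E14.5 against E12.5, of which 6 rose, 5 fell and 4 did not pass. The shares over all genes were 25.5% higher and 20.9% lower. Ccnb3, a cyclin of meiotic germ cells, was well above background on no E12.5 array. It read -6.23 and -6.73 on those arrays, -2.99 and -2.42 on the E13.5 arrays, and -1.95 and -0.80 on the E14.5 arrays. With its E12.5 level set as for Figla, it was 28.8-fold higher at E14.5. The measured log2 difference was 5.11 ± 0.41 (SE) (limma adjusted p = 0.000727). Oas1d, an oligoadenylate synthetase family member of oocytes, was also above background on no E12.5 array. By the same rule it was 3.11-fold higher at E14.5, with a measured log2 difference of 2.56 ± 0.16 (limma adjusted p = 0.000488). Like Figla, Ccnb3 and Oas1d passed the filter on dim probes only through E13.5 and E14.5, and so did Nlrp4f, another of the 6 rises. In the other direction, Zar1, which binds stored RNAs in the egg, read -3.27 and -3.42 at E14.5, against -0.17 and -0.81 at E12.5. Zar1 fell by 2.86 ± 0.22 (SE) (limma adjusted p = 0.00069). Mos, the kinase that holds the egg in meiotic arrest, fell by 1.50 ± 0.12 (limma adjusted p = 0.00074).

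**Figure D4:**
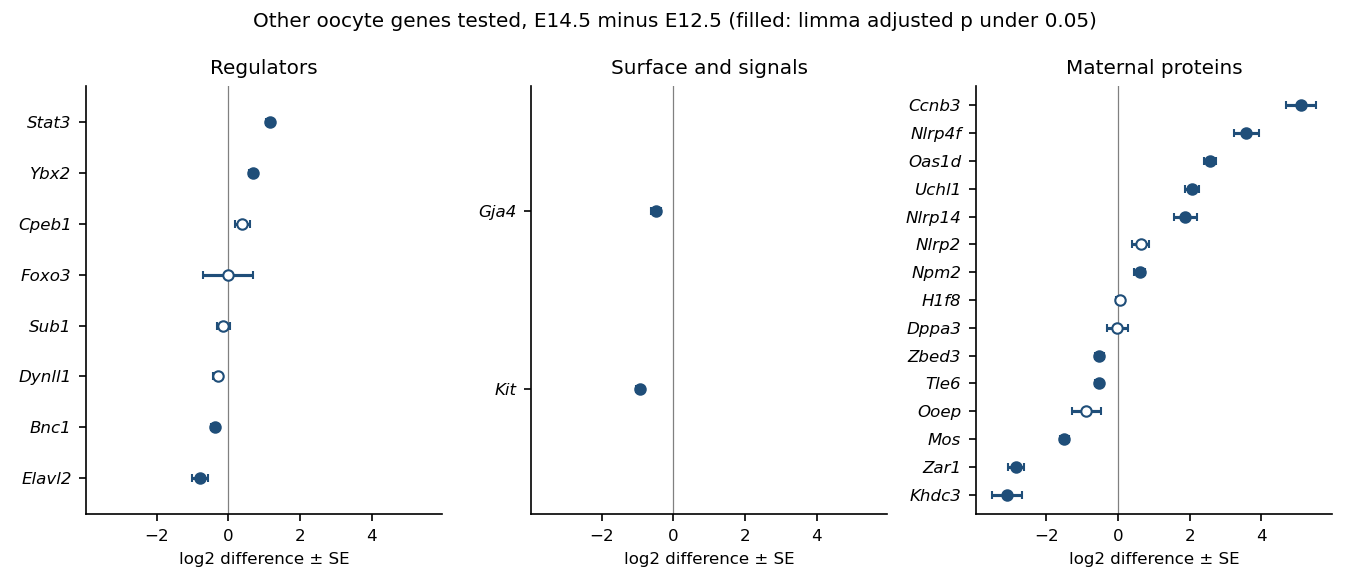
Log2 differences in E14.5 minus E12.5 of the 25 tested genes of the 3 other oocyte lists, with bars of 1 SE from the fit to all 6 arrays; filled points passed at a limma adjusted p of 0.05. Points lie on both sides of 0 in the regulators and the maternal proteins, where Ccnb3 is farthest right, and Kit and Gja4 lie left of 0.

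Markers of the cells in the gonad moved beside the members. The summed linear signal of 6 germ cell markers, relative to the 75th percentile, was 42.9 to 48.2 on the E14.5 arrays, against 23.5 to 27.7 on the E12.5 arrays, and the ranges did not overlap. Of these markers 3 rose, 1 fell and 2 did not pass in E14.5 against E12.5, among them Ddx4, an RNA helicase of germ cells, which rose by 1.05 ± 0.11 (SE) (limma adjusted p = 0.00145). The median log2 difference of the 6 was 0.34. Over all genes tested, 25.5% rose and 20.9% fell in that comparison. Dazl, a germ cell RNA-binding protein counted among the rises at 0.84 ± 0.19, had a second probe that moved by -0.29. Its call ended with the mean of all probes (limma adjusted p = 0.25), without E12.5 array 1 (0.0522) and without E14.5 array 1 (0.0633). All 9 tested genes of meiotic entry rose in the same comparison, and their summed signal was 172.0 to 195.0 at E14.5, against 26.6 to 30.9 at E12.5. Stra8, the meiotic gatekeeper that retinoic acid induces, rose by 2.96 ± 0.17 (limma adjusted p = 0.000478). Sycp3, also among the 9, rose by 3.24 ± 0.21 (limma adjusted p = 0.000565).

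Somatic markers did not move as one. The summed signal of 7 pregranulosa markers was 9.52 to 13.3 at E14.5 and 9.40 to 10.4 at E12.5, with 2 of the 7 higher and 1 lower. Wnt4, 1 of those 2, was well above background on all 6 arrays and rose by 1.01 ± 0.12 (SE) (limma adjusted p = 0.00227). Irx5, the other, was well above background on no array of either stage, so its rise sets a dim level against a dim one. Foxl2, the defining factor of pregranulosa cells, was well above background on 4 of 6 arrays. It differed by -0.46 ± 0.18 (SE) in E14.5 against E12.5 (limma adjusted p = 0.0741), and passed as lower with arrays centred on their medians (-0.63, limma adjusted p = 0.036), without E14.5 array 1 (-0.69, limma adjusted p = 0.0273) and with a replicate block (limma adjusted p = 0.0392). The 9 Sertoli markers summed to 57.9 to 63.5 at E14.5 and 64.1 to 69.1 at E12.5, with 2 higher, 3 lower and 4 not called. Among them Sox9 fell by 1.50 ± 0.20 (limma adjusted p = 0.00308), and its other probes moved by -1.24 and -0.7. Amh differed by 0.03 ± 0.12 (limma adjusted p = 0.845). The 6 mesonephros markers, from the tissue attached to the gonad, summed to 0.649 to 0.807 at E14.5 and 2.27 to 2.40 at E12.5, with 1 higher, 3 lower and 2 not called. These counts of E14.5 against E12.5 stand beside 25.5% of all genes higher and 20.9% lower. A linear sum is carried by the brightest markers of its list. The part of these shifts in the members' differences was not tested.

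The 5 genes whose profile over the 6 arrays was nearest to that of Figla were 4930524B15Rik, Asb9, Dpep3, Cyp17a1 and Jak3. Likeness was the root mean square difference between log2 values, each gene centred on its own mean, and was 0.117, 0.182, 0.197, 0.208 and 0.246. These distances and their order rest in part on E12.5 signals of Figla, 4930524B15Rik and Dpep3 that were not well above background. Pearson r with Figla over the 6 arrays was 0.994 to 0.999, a description only, since the 2 arrays of a stage share that stage and the E12.5 arrays their slide. Asb9, an ankyrin repeat and SOCS box gene, was above background on every array and rose by 5.39 ± 0.26 (SE), or 42.1-fold, in E14.5 against E12.5 (limma adjusted p = 0.000377). Cyp17a1, an enzyme of androgen synthesis, rose by 5.16 ± 0.28 (limma adjusted p = 0.00044). Like Figla, 4930524B15Rik and Dpep3, a membrane dipeptidase, were above background on no E12.5 array and passed the filter only through later stages. With E12.5 levels set as for Figla, they were 19.6-fold and 15.6-fold higher at E14.5. Their measured log2 differences were 5.35 ± 0.41 (SE) and 5.09 ± 0.28 (limma adjusted p = 0.00069 and 0.00044). Jak3, a cytokine receptor kinase, rose by 5.44 ± 0.20 (limma adjusted p = 0.000186) with its brightest probe. Of its other probes, 1 moved by 4.73 and 1 by -0.62, so the rise was not shared by all 3.

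**Figure D5:**
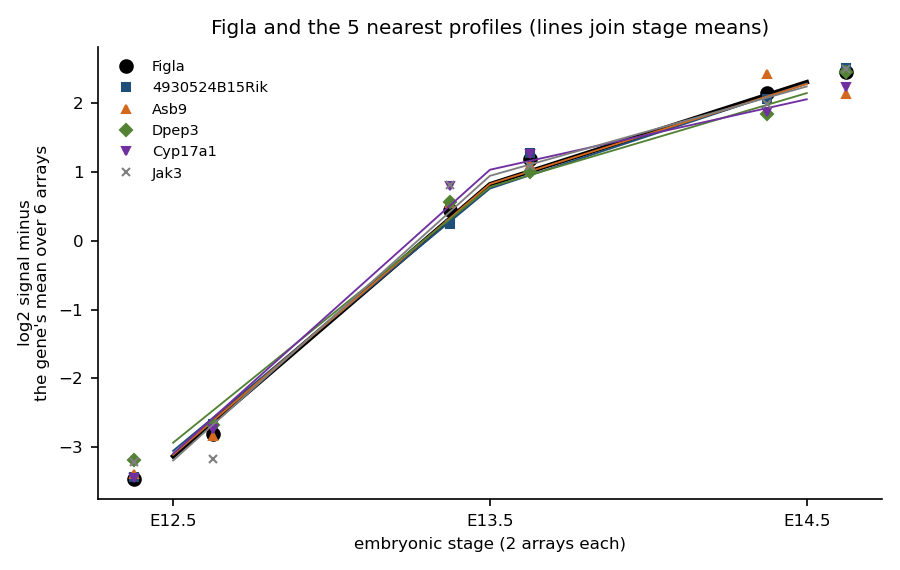
Log2 signals of Figla and of the 5 genes nearest to it, each minus its own mean over the 6 arrays; points are single arrays and lines join the means of the 3 stages. All 6 genes are lowest at E12.5 and highest at E14.5, with the larger step between E12.5 and E13.5.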

How the data were processed

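Male gonads of Cyp26b1-/- embryos were measured at 3 stages with 2 arrays each. The scanner files hold the spot intensity, background-subtracted by the authors' scanner software, with medians of spot and local background and flags, per the file headers. They were made with Agilent Feature Extraction 9.5, per the submitters' processing notes. The authors' deposited table holds 1 linear ratio per probe and stage, with scaling, centring and reference not stated. Log2 differences between its columns correlated with those of the scanner values at 1.0 over the 25605 probes above background on all arrays, and at 0.892 to 0.950 over all 41153.

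From the deposited intensity, log2 values minus each array's 75th percentile were computed here. Spots of controls and outliers were dropped and spots of 1 probe averaged. Probes were named through RefSeq accessions (GRCm38.p6 table). The files use 2 design revisions with different accessions for 2904 probes, so the later one was read first. The brightest probe stood for a gene, which had to be well above background on both arrays of a stage. Stages were compared on all 6 arrays with limma 3.58.1 in R 4.3.3 (lmFit, eBayes, two-sided, Benjamini-Hochberg adjusted over 13484 genes, threshold 0.05), after a test on simulated data. Tables and figures used Python 3.11.15, pandas 2.3.3 and matplotlib 3.10.9. The number of arrays limits precision. The origin of the duplicates beyond that word is not given in the sources used here, so p-values measure the spread between these arrays.

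The members and gene lists were chosen with earlier results of these data known. Named were all members, up to 4 called genes of each other oocyte list by smallest adjusted p in E14.5 against E12.5, reference genes, and the 5 genes nearest to Figla. Irx5 and the genes named as never above background were chosen after their values were seen. Alternatives changed background correction (normexp, offset 50), scaling, filter, probe choice, prior, blocks, fold minimum, arrays left out and, chosen after seeing the data, the design revision that names probes.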

Additional observations from a re-analysis of the deposited data

How the results depend on the processing

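In E13.5 against E12.5, 5 members were called with only the 4 arrays of those stages, and leaving out 1 array gave 1 to 5, against 2 with all arrays. In E14.5 against E13.5, 1 member was called with normexp and 1 with a trended, robust prior, Figla both times, and leaving out 1 array gave 0 to 1, against 0. In E14.5 against E12.5, requiring signal above background on all 6 arrays left 4 members to test and 3 called, against 5, since Figla and Padi6 were no longer tested. With no background filter 9 members were tested and 6 called. That added Nlrp5 as higher, although it was well above background on no array. Figla and Nobox kept their E14.5 rise over E12.5 in every alternative that tested them, with log2 differences of 3.24 to 5.77 and 1.32 to 2.24, and so did Lhx8, at 1.38 to 2.87 with limma adjusted p up to 0.0495. Lhx8 was not tested with names of the first design revision only. Some directions turned among differences that had not passed. Sohlh2 in E14.5 against E13.5 gave 0.13 without E14.5 array 2, and Padi6 in E13.5 against E12.5 gave 0.07 with normexp, against -0.49. Gdf9 gave -0.07 with quantile and -0.08 with median scaling in E13.5 against E12.5, -0.02 and -0.04 in E14.5 against E13.5, and -0.09 and -0.12 in E14.5 against E12.5. Without single arrays Gdf9 gave -0.26 and -0.19 (E12.5 array 1, E13.5 array 1), -0.15 and -0.37 (E13.5 array 2, E14.5 array 2), and -0.22 and -0.37 (E12.5 array 1, E14.5 array 2) in the same order of comparisons, with highest values of 0.27, 0.46 and 0.46. Their causes were not tested. Whether same-numbered arrays of different stages are paired is not given in the sources used here. Their deviations correlated at -0.0429, 0.229 and -0.0599, which cannot decide it. A replicate block changed no member count (2, 0 and 5 called). Over all genes it gave 3785 calls in E13.5 against E12.5 and 5829 in E14.5 against E12.5, against 4261 and 6260. Among other genes named, that block ended the Bnc1 fall (limma adjusted p = 0.0646) and made Foxl2 pass as lower. A slide block adds nothing to a fit of stage means, because all arrays of a stage lay on the same slide. For E14.5 against E13.5 that fit was therefore the main fit itself and tested no slide effect. Over all genes, calls in E14.5 against E13.5 ran from 0 to 397 (normexp), against 7. A 2-fold minimum left 1170 of 4261 calls in E13.5 against E12.5 and 1929 of 6260 in E14.5 against E12.5. Leaving out 1 array brought these counts down to 1397 and 3952. Signal near background limits Padi6, Zp2, Zp3, Nlrp5 and the E12.5 level of Figla.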
